A study of Mus musculus with 2 samples.

Results

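This report describes 6 mouse genes: the chemokine genes Ccl2, Ccl7, Ccl8 and Ccl12 and the receptor genes Ccr2 and Cx3cr1. They were taken by symbol from the 32285 features of the deposited matrices, and each was found once in both libraries. The libraries are 10x 3' single-cell RNA-seq of tumours of MC38, a mouse colon carcinoma line. One group carried tumours of genotype Mbtps1 WT (control) and the other Mbtps1 KD (knockdown), while the series text speaks of a knockout. Mbtps1 encodes the site-1 protease, a Golgi enzyme that cuts membrane-bound transcription factors. Each group is 1 library, so no difference between the groups has a replicate check and none was tested. No source used here gives the number of tumours behind each library, the host strain and age, the treatment and time of the hosts, or the means of the knockdown.

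CCL2, CCL7, CCL8 and CCL12 are small secreted proteins of the monocyte chemoattractant family. CCL2, CCL7 and CCL12 bind the receptor CCR2, which brings classical monocytes out of the bone marrow and into inflamed tissue and tumours. Mouse CCL8 is also known as a ligand of CCR8. Monocytes that enter a tissue lose CCR2 as they mature into macrophages. CX3CR1, the receptor of the membrane-bound chemokine CX3CL1, is high on patrolling monocytes and on many tissue macrophages, and is also found on effector T cells.

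The control library gave 11034 cells and the knockdown library 14330, with medians of 8201 and 5790 UMIs per cell. The labels' protocols give about 6000 cells loaded and about 3000 targeted per channel, fewer than were kept. The libraries shared 42 cell barcodes. Macrophage/monocyte-like cells numbered 4775 and 4765, which was 43.3% of control and 33.3% of knockdown cells. Their median depths were 6054 and 3855 UMIs. Tumour-like cells numbered 4443 and 6585. The targeted gene Mbtps1 had 28.9 CPM in control and 12.3 CPM in knockdown in tumour-like cells, a ratio of 0.425 (0.397 to 0.454). In macrophage/monocyte-like cells, which belong to the host, it had 19.4 CPM in control and 19.2 CPM in knockdown. Levels are UMIs per 1000000 UMIs (CPM) of all cells of a class in 1 library, and each ratio is knockdown over control with its 95% exact Poisson interval. All intervals cover counting error only.

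The 4 chemokine genes lie on the plus strand of chromosome 11 within 81229 bases (GENCODE vM21, GRCm38): Ccl2 at chr11:82035571-82037453, Ccl7 at chr11:82045712-82047525, Ccl12 at chr11:82101845-82103400 and Ccl8 at chr11:82115185-82116799. Each is protein-coding, with 3 exons in its longest transcript. Ccr2 lies at chr9:124101950-124113557 on the plus strand, and Cx3cr1 at chr9:119901616-120069879 on the minus strand. The last 500 bases of the 4 chemokine transcripts, where 3' reads fall, shared runs of at most 15 bases (Ccl2 with Ccl12). No source used here says how the authors' counting treated reads that fit more than 1 gene. Ccl12 and Ccl8 are neighbours, 11784 bases apart, and both had most of their UMIs in macrophage/monocyte-like cells, so the 250 bases before their starts are shown (RefSeq, GRCm38.p6, plus strand, chr11:82101595-82101844 for Ccl12 and chr11:82114935-82115184 for Ccl8). Capitals mark the TATA box TATAAA and the 8-base runs that both windows hold, the longest they share.
Ccl12: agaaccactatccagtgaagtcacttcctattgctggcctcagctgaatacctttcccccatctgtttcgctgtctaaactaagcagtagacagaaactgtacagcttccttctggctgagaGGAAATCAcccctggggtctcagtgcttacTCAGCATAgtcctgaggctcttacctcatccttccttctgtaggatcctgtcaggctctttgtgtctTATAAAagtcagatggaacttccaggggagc
Ccl8: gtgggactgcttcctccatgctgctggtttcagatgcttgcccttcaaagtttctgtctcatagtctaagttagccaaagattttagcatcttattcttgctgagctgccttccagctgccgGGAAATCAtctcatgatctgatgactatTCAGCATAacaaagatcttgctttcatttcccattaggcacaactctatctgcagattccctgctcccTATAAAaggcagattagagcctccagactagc
TATAAA ends 26 bases before the Ccl12 start and 27 before the Ccl8 start, and 12.4% of 32851 promoters of that length hold it on either strand. The shared run GGAAATCA lies 128 to 121 bases before the start in both. How often other windows of this length share 8-base runs was not counted. The ETS motif GAGGAA, held by 23.3% of the promoters, was matched once in each window, on the plus strand 130 to 125 bases before the Ccl12 start, where it overlaps the shared run, and on the minus strand 240 to 235 bases before the Ccl8 start. The AP-1 motif TGANTCA, the NF-kB consensus and the interferon response motif, searched on both strands, were not matched in either window. They are held by 6.75%, 7.25% and 2.98% of the promoters, and no match says only that these letters are not in the window. The table holds 4 of the 6 genes, without Ccl2 and Ccl7.

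Among the ligands, Ccl8 stood out: in macrophage/monocyte-like cells it had 1057 CPM in control and 1773 CPM in knockdown, a ratio of 1.68 (1.65 to 1.70). The other ligands differed far less there. Ccl12 had 489.6 CPM in control and 566 CPM in knockdown (ratio 1.16, 1.13 to 1.18). Ccl2, the best-known CCR2 ligand, had 645 CPM in control and 689 CPM in knockdown (ratio 1.07, 1.05 to 1.09). Ccl7 had 455 CPM in control and 466 CPM in knockdown, with an interval that holds 1 (ratio 1.02, 0.998 to 1.05). So 1 of the 6 genes was at least 1.5 times higher in knockdown, against 9.97% of all genes with at least 20 UMIs and 0.941% of those with at least 50 CPM in 1 library. None was at least 1.5 times lower, against 3.21% and 0.314%. The median log2 ratio of all these genes was 0.06, and that of Ccl8 was 0.75.

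**Figure D1:**
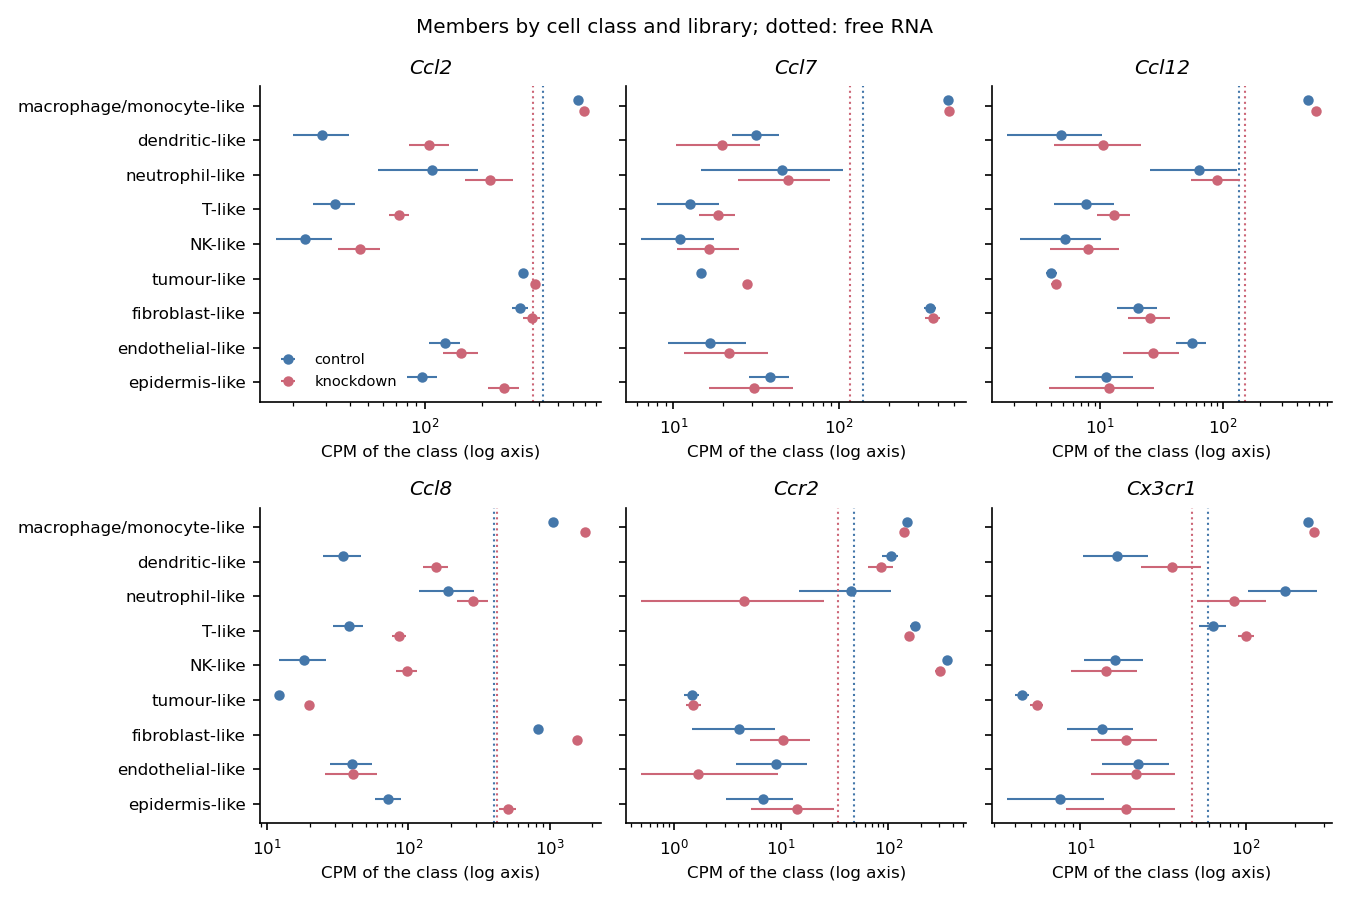
CPM of each gene (x axis, log scale) in 9 cell classes (y axis) of the control and knockdown libraries, with 95% Poisson intervals cut at 0.5 CPM; dotted lines mark the level in free RNA (barcodes of at most 100 UMIs) of each library. The macrophage/monocyte-like point for Ccl8 moves from 1057 to 1773 CPM, while Ccr2 is highest in NK-like cells.

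Other classes also held these ligands. Most Ccl2 UMIs lay outside the macrophages: tumour-like cells held 61.5% in control and 70.9% in knockdown of its UMIs, and macrophage/monocyte-like cells 35.8% and 26.0%. Ccl7 came mainly from macrophage/monocyte-like cells (83.1% and 70.5%), and the tumour-like share was 9.04% in control and 20.9% in knockdown. Ccl8 and Ccl12 lay almost wholly in macrophage/monocyte-like cells, which held 91.6% and 87.1% of Ccl8 and 96.2% and 92.7% of Ccl12 UMIs. Fibroblast-like cells held 3.44% and 4.00% of Ccl8. These shares follow the number and depth of the cells captured as well as their levels. Over all kept cells Ccl7 and Ccl12 were lower in knockdown, with ratios of 0.881 (0.862 to 0.902) and 0.876 (0.855 to 0.896), whereas within the macrophages they were not. Ccl8 was higher in both views, with 247 and 318 CPM over all cells (ratio 1.29, 1.27 to 1.31).

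**Figure D2:**
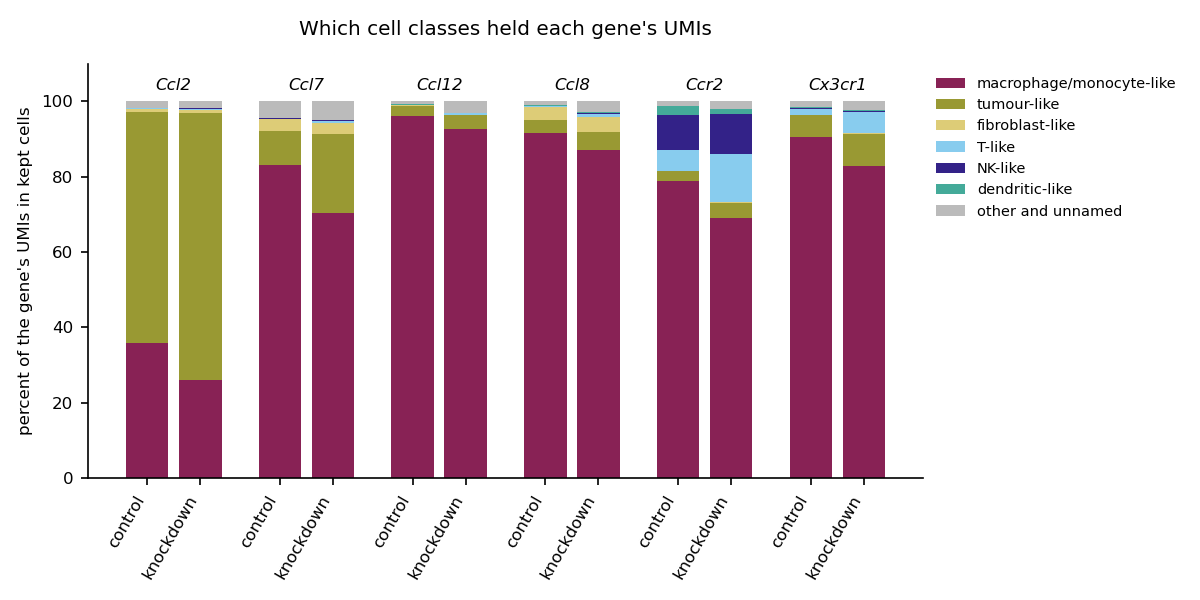
Share of each gene's UMIs in kept cells (y axis, percent) held by each cell class, for both libraries of each gene (x axis). Tumour-like cells hold 61.5% and 70.9% of Ccl2, and macrophage/monocyte-like cells hold most of the other 5 genes.

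Depth differed between the libraries, so cells were also thinned to 500 UMIs, with 0 macrophage/monocyte-like cells left out. The share of these cells with a Ccl8 UMI was then 16.4% (15.4 to 17.5) in control and 23.0% (21.8 to 24.2) in knockdown. The shares for Ccl2 were 18.4% and 19.4%, for Ccl7 13% and 13.6% and for Ccl12 12.9% and 14.5%. The ratio of these shares, knockdown over control, was 1.40 (1.29 to 1.52) for Ccl8 and 1.12 (1.01 to 1.24) for Ccl12. For Ccl2 and Ccl7 its interval held 1, at 1.06 (0.973 to 1.15) and 1.05 (0.944 to 1.16). With cells thinned to 1000 UMIs the Ccl2 interval left out 1, at 1.09 (1.03 to 1.17), and that of Ccl12 did so again, at 1.12 (1.04 to 1.21). Without thinning, the shares were 40.7% and 46.9% for Ccl8, 57.4% and 54.8% for Ccl2, 43.1% and 38.4% for Ccl7 and 44.4% and 40.6% for Ccl12. In T-like cells, which should lack these chemokines, the thinned shares were 3.2% and 4.92% for Ccl8, 2.44% and 4.58% for Ccl2, 1.5% and 0.930% for Ccl7 and 0.752% and 0.664% for Ccl12, at median depths of 2718 and 1949 UMIs.

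The ratios grew when only macrophage/monocyte-like cells of 2000 to 6000 UMIs were kept, an alternative chosen after seeing the data. Ccl8 then had 811 CPM in control and 1819.9 CPM in knockdown (ratio 2.24, 2.19 to 2.30). Ccl12 had a ratio of 1.75 (1.67 to 1.82), Ccl7 of 1.52 (1.45 to 1.59) and Ccl2 of 1.39 (1.34 to 1.44). This window also changed the mix of cells: monocyte-like subclusters were 15.3% of the control and 10.8% of the knockdown cells in it, but 7.90% and 11.8% of all macrophage/monocyte-like cells. The part of that shift in the ratios was not tested.

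Within the class, 14 subclusters had at least 50 cells in each library, found by clustering without the 6 genes. Ccl8 ran from 13.4 to 8567 CPM over the control subclusters. The top was subcluster 14, led by Retnla, Cd209f and Lyve1, genes known from resident tissue macrophages, with 8567 CPM in control and 7504 CPM in knockdown. It was also the one subcluster whose interval lay below 1 (ratio 0.876, 0.836 to 0.917). Subcluster 7, led by Pf4, Folr2 and Spp1, followed with 2953 CPM in control and 3766 CPM in knockdown (ratio 1.28, 1.23 to 1.32). Next came subcluster 3, led by Ccl8 itself, Ms4a7, Cxcl9 and the antigen presentation gene H2-Eb1, with 1994 CPM in control and 3498 CPM in knockdown (ratio 1.75, 1.69 to 1.83), and subcluster 2, led by Hdac9, Fcrls and Stab1, with 1501 CPM in control and 3251 CPM in knockdown (ratio 2.17, 2.09 to 2.24). The interval lay above 1 in 11 of 14 subclusters. The largest ratio, 6.61 (2.40 to 25.4), was that of monocyte-like subcluster 12 and rests on 4 control UMIs.

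Ccl12 was highest in subcluster 9, whose leading genes Cmpk2, Ifit3 and Rsad2 are interferon-induced, with 1024 CPM in control and 1482 CPM in knockdown (ratio 1.45, 1.35 to 1.56). Its ratio was also above 1 in subcluster 1, led by Ly6i, Nos2 and Ly6c2, where it had 199 CPM in control and 353 CPM in knockdown (ratio 1.78, 1.58 to 2.0). In subcluster 0, led by Cxcl2, Il1a and Ptgs2, it was lower, with 326 CPM in control and 271 CPM in knockdown (ratio 0.833, 0.762 to 0.910). So Ccl12 went both ways, with intervals above 1 in 7, below in 1 and holding 1 in 6 of 14 subclusters. Ccl2 had its highest control level in subcluster 9 as well, with 987 CPM in control and 1183 CPM in knockdown. Its intervals lay above 1 in 7 subclusters and below in 1, and in subcluster 14 it had 720.0 CPM in control and 1185 CPM in knockdown (ratio 1.65, 1.43 to 1.89). Ccl7 had intervals above 1 in 6 and below in 1. It was nearly absent from monocyte-like subclusters 12 and 16, with 5 and 10 UMIs in the first and 1 and 2 in the other.

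**Figure D3:**
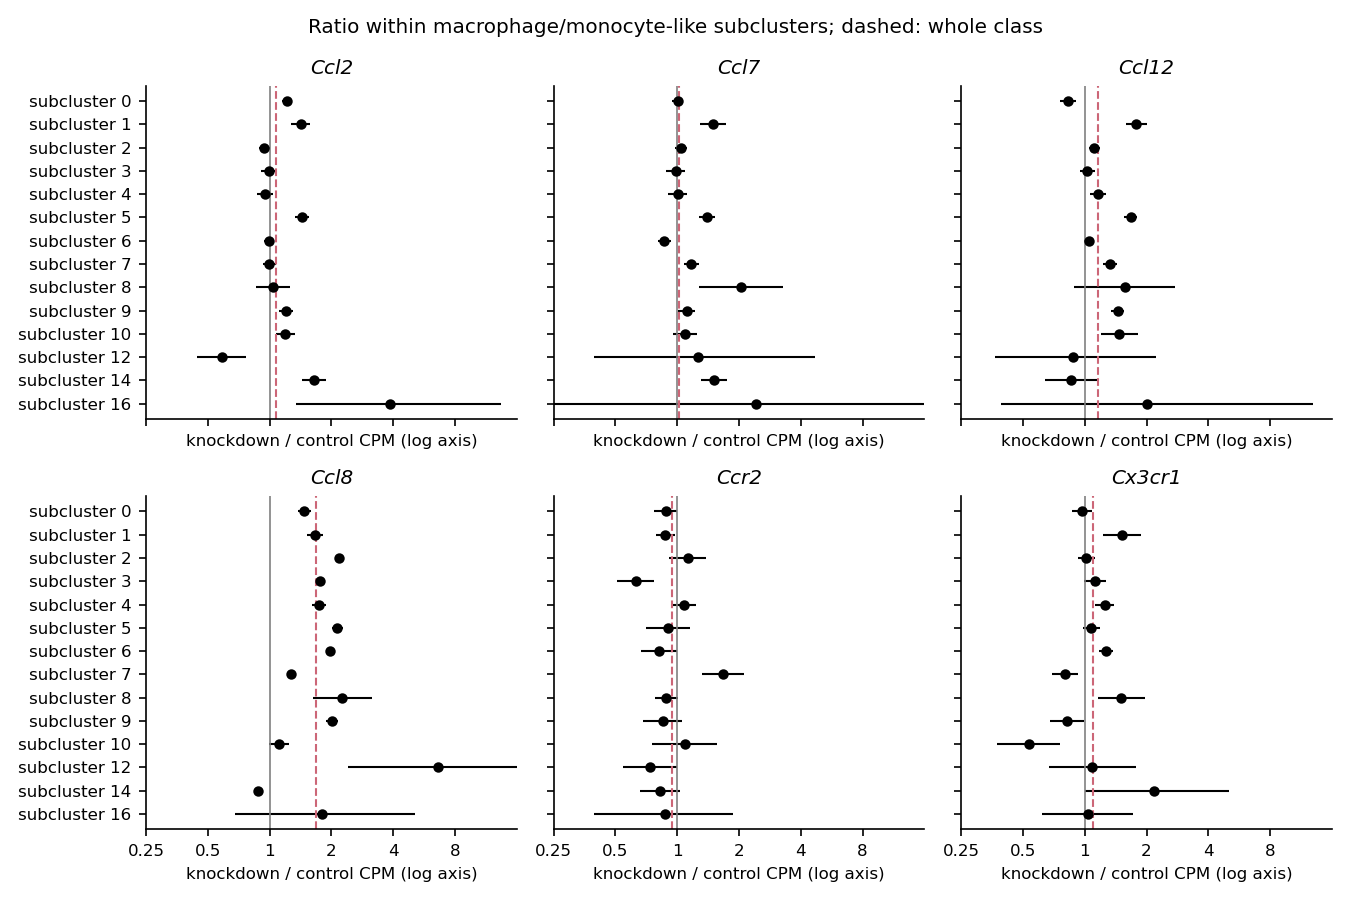
Knockdown over control CPM ratio (x axis, log scale from 0.25 to 16) of each gene in the 14 macrophage/monocyte-like subclusters (y axis) with 95% Poisson intervals, some of which run past the axis; dashed lines mark the whole class. Ccl8 lies right of 1 in 13 of 14 subclusters, and subcluster 14 is the exception.

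The ligands were often found in the same cells. Among 4560 control and 4036 knockdown macrophage/monocyte-like cells thinned to 2000 UMIs, Ccl7 was seen in 50.6% and 50.4% of cells with a Ccl2 UMI, against 16.1% and 16.3% of cells without one. Ccl12 was seen in 51.5% and 56.1% of cells with Ccl7 and in 20.8% and 23.8% of those without. The tie of Ccl8 to Ccl2 was looser, with 34.5% and 43.7% against 25.6% and 37.1%. All 4 ligands were seen in 5.04% (4.43 to 5.72) of control and 7.53% (6.74 to 8.39) of knockdown cells, and none of them in 33.5% and 26.6%. Ccl8 was the most unevenly spread ligand: the 10% of cells with the most UMIs of it held 81.4% of its UMIs in control and 72.6% in knockdown, against 58.7% and 55.8% for Ccl2. Cells of 1 library are not replicates, so these shares describe the libraries.

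Of the receptors, Ccr2 was highest in NK-like cells, with 352 CPM in control and 303 CPM in knockdown (ratio 0.861, 0.757 to 0.980). T-like cells had 176 CPM in control and 155 CPM in knockdown (ratio 0.882, 0.766 to 1.02), and dendritic-like cells 105 CPM in control and 85.7 CPM in knockdown (ratio 0.817, 0.588 to 1.12). Macrophage/monocyte-like cells lay between T-like and dendritic-like cells, with 148 CPM in control and 139 CPM in knockdown (ratio 0.941, 0.898 to 0.987), but as the largest class they held 78.7% and 69.1% of all Ccr2 UMIs. In these 4 classes every ratio was below 1, and only the intervals of NK-like and macrophage/monocyte-like cells left out 1. Among the latter, cells of 2000 to 6000 UMIs gave a lower ratio for Ccr2, 0.626 (0.589 to 0.666), and cells of at least 3000 UMIs gave 0.725. Both settings were added after seeing the data. The first held 15.3% monocyte-like cells in control and 10.8% in knockdown, and the part of that mix was not tested. Thinned to 500 UMIs the ratio was 0.967, with an interval that holds 1 (0.847 to 1.10). With equal cell weights it was 0.982, the highest of 14 alternatives. The T-like value mixes clusters: the T-like cluster with Foxp3 and Il2ra, genes of regulatory T cells, among its leading genes had 536 CPM in control and 686 CPM in knockdown (ratio 1.28, 1.06 to 1.55), and that with Cd8a and Cd8b1 65.5 CPM in control and 77.3 CPM in knockdown (ratio 1.18, 0.920 to 1.52). The T-like cluster led by Trdc and Il17a had 345 CPM in control and 364 CPM in knockdown (ratio 1.05, 0.621 to 1.87), from 19 and 60 UMIs. Each of these cluster ratios was above 1 while that of the class was below. The Foxp3 cluster was 152 of 532 control and 228 of 1505 knockdown T-like cells. The thinned share of macrophage/monocyte-like cells with a Ccr2 UMI was 8.08% (7.33 to 8.89) in control and 8.14% (7.38 to 8.96) in knockdown, and these intervals overlap.

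Ccr2 differed widely between subclusters. It was highest in monocyte-like subcluster 8, led by Chil3, Hp and Plac8, with 658 CPM in control and 583 CPM in knockdown (ratio 0.887, 0.779 to 1.01), and lowest in subcluster 10, led by Mmp12 and Gpnmb, with 50.1 CPM in control and 54.6 CPM in knockdown. Subcluster 14, rich in Ccl8, also had much Ccr2, with 391 CPM in control and 324 CPM in knockdown (ratio 0.829, 0.661 to 1.04). The other monocyte-like subclusters had less than that, with 278 and 205 CPM in subcluster 12 and 117 and 102 CPM in subcluster 16. The interval lay below 1 in 5 of 14 subclusters and above in 1, subcluster 7, with 61.1 CPM in control and 102 CPM in knockdown (ratio 1.66, 1.31 to 2.11). Monocyte-like subclusters 8, 12 and 16 were 7.90% (7.15 to 8.70) of the class in control and 11.8% (10.9 to 12.8) in knockdown. Ligand and receptor tended to part within cells, most for Ccl8 and least for Ccl2. At 2000 UMIs per cell, Ccr2 was seen in 11.3% and 11.6% of cells with a Ccl8 UMI, against 27.1% and 25.5% of those without. For Ccl2 it was seen in 19.1% and 16.9% of cells with a UMI, against 24.8% and 22.4% of those without.

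**Figure D4:**
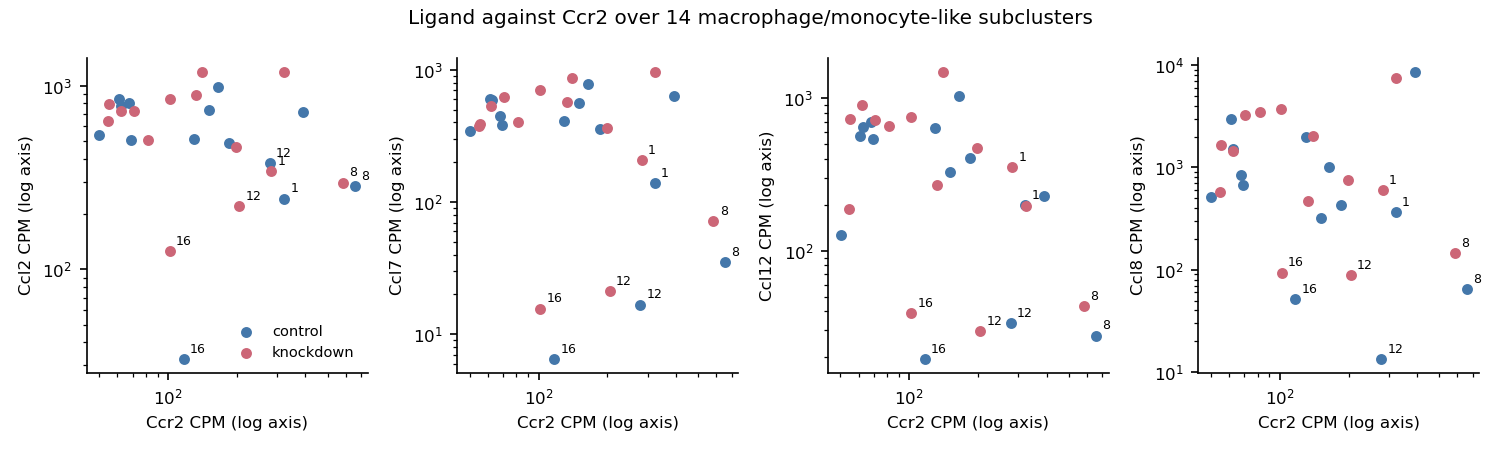
CPM of each ligand (y axis, log scale) against CPM of Ccr2 (x axis, log scale) in 14 macrophage/monocyte-like subclusters of each library; numbers mark subclusters 1, 8, 12 and 16. Monocyte-like subclusters 8, 12 and 16 lie lowest for Ccl7, Ccl12 and Ccl8, and subcluster 14 joins high Ccl8 with high Ccr2.

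Cx3cr1 had 239 CPM in control and 260.4 CPM in knockdown in macrophage/monocyte-like cells (ratio 1.09, 1.05 to 1.13). That direction did not hold throughout: with every cell thinned to 500 UMIs the ratio was 0.922, with an interval that holds 1 (0.813 to 1.05). With equal cell weights it was 1.001. Among subclusters, Cx3cr1 levels differed. It was highest in subcluster 5, led by Fcrl5, Sox5 and Cd300e, in control, and in cycling subcluster 6, led by Top2a and Mki67, in knockdown. The values were 369 CPM in control and 398 CPM in knockdown for the first and 336 CPM in control and 425 CPM in knockdown (ratio 1.26, 1.17 to 1.37) for the other. Subcluster 16, led by the patrolling monocyte genes Adgre4, Ace and Treml4, had 234 CPM in control and 243 CPM in knockdown. Ccl8-rich subcluster 14 had 11 and 21 Cx3cr1 UMIs, or 22.4 CPM in control and 48.9 CPM in knockdown. Among T-like cells, Cx3cr1 had 63.5 CPM in control and 100.6 CPM in knockdown (ratio 1.58, 1.28 to 1.97). The ratio was 1.17 (0.698 to 2.03) with cells thinned to 500 UMIs and 1.37 with doublets kept, both under 1.5. In that class 10.9% of genes were at least 1.5 times higher and 5.77% lower; 4 of the 6 genes (Ccl2, Ccl8, Ccl12 and Cx3cr1) were higher and 0 lower, and the 3 ligands among them were at or under 20.5% of their free RNA level. The T-like cluster led by Cd8a and Cd8b1 had 59.0 CPM in control and 114 CPM in knockdown (ratio 1.94, 1.52 to 2.51), while the others went the opposite way on few UMIs. The T-like cluster led by Trdc and Il17a had 327 CPM in control and 36.4 CPM in knockdown (ratio 0.111, 0.0362 to 0.293), from 18 and 6 UMIs. The Foxp3 cluster had 42.8 CPM in control and 19.5 CPM in knockdown (ratio 0.455, 0.159 to 1.15), from 17 and 7 UMIs. The ligand gene Cx3cl1 was highest in endothelial-like cells, with 43.4 CPM in control and 43.6 CPM in knockdown, from 39 and 26 UMIs.

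Tumour-like cells expressed Ccl2 and little of the rest. Ccl2 had 329.9 CPM in control and 379 CPM in knockdown (ratio 1.15, 1.13 to 1.17). Ccl7 had 14.8 CPM in control and 27.8 CPM in knockdown (ratio 1.88, 1.77 to 2.0), and Ccl8 12.2 CPM in control and 19.7 CPM in knockdown (ratio 1.62, 1.5 to 1.74). So 2 of the 6 genes were at least 1.5 times higher, against 14.8% of all genes tested in this class, and none at least 1.5 times lower, against 5.31%. Free RNA was gauged by the macrophage genes C1qa, C1qb and C1qc, whose summed level in tumour-like cells was 2.49% and 3.64% of their level in free RNA. On the same scale Ccl8 stood at 3.01% in control and 4.66% in knockdown and Ccl12 at 2.97% in control and 2.91% in knockdown, near that gauge. Ccl7 stood at 10.5% in control and 23.9% in knockdown and Ccl2 at 78.9% in control and 102% in knockdown, well above it. Subtracting free RNA at 10% of each class sum gave a Ccl7 ratio of 22.6, since it left almost no Ccl7 in control. That 10% is more than the C1q gauge of 2.49% and 3.64% in this class. Among tumour-like cells of 10000 to 20000 UMIs, chosen after seeing the data, the ratio was 1.03 for Ccl8 and 1.48 for Ccl7.

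The Ccl2 ratio in tumour-like cells depended on which cells were compared. It lay above 1 in 7 of 7 tumour-like clusters, from 1.06 to 1.64, and giving each cluster equal weight made it 1.36. The highest levels were in cluster 9, led by Mfap4, H19 and Ogn, with 597 CPM in control and 805 CPM in knockdown, and this cluster made up 20.7% of control but 6.33% of knockdown tumour-like cells. The lowest were in cluster 5, led by Galnt13 and Rgs20, with 159 CPM in control and 245 CPM in knockdown, and its shares were 6.55% and 19.7%. In the same window of 10000 to 20000 UMIs the Ccl2 ratio was 1.001. Ccl7 was above 1 in 7 of 7 clusters as well, from 1.45 to 3.46. It peaked in the same cluster 9, with 31.4 CPM in control and 59.3 CPM in knockdown (ratio 1.89, 1.64 to 2.18).

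**Figure D5:**
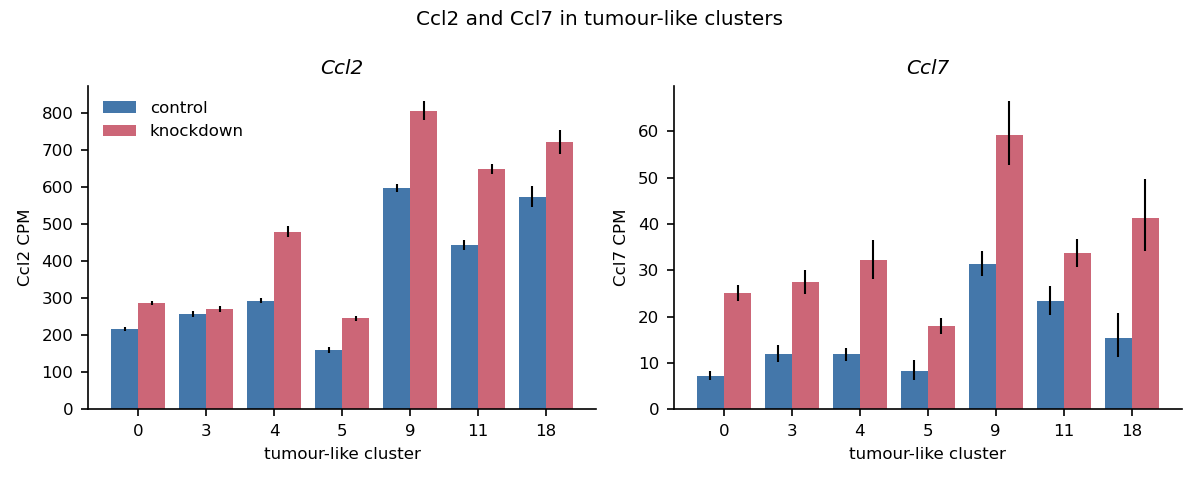
CPM of Ccl2 (left, y axis) and Ccl7 (right, y axis) in the 7 tumour-like clusters (x axis) of control and knockdown, with 95% Poisson intervals. Knockdown bars are higher in each cluster, and cluster 9 is highest for both genes.

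Fibroblast-like cells were another source of Ccl8, Ccl7 and Ccl2. Ccl8 had 829.7 CPM in control and 1555 CPM in knockdown there (ratio 1.87, 1.74 to 2.02), a difference in the same direction as in the macrophages. Of the 5 members with at least 20 UMIs in this class, 1 was at least 1.5 times higher and 0 lower, against 9.08% and 10.6% of genes. The difference was largest in cluster 22, led by Col12a1, Mmp3 and Postn, with 1072 CPM in control and 2251 CPM in knockdown (ratio 2.10, 1.94 to 2.27), and smaller in cluster 23, led by Pi16 and Clec3b, with 311 CPM in control and 439 CPM in knockdown (ratio 1.41, 1.13 to 1.77). Ccl2 had 317 CPM in control and 366 CPM in knockdown (ratio 1.15, 1.01 to 1.32) and Ccl7 356 CPM in control and 369.6 CPM in knockdown (ratio 1.04, 0.909 to 1.19). The C1q gauge was 5.83% and 15.5% of free RNA in these cells, while Ccl8 stood at 205% in control and 369% in knockdown and Ccl7 at 253% in control and 318% in knockdown. Endothelial-like cells had Ccl2 at 127 CPM in control and 154 CPM in knockdown. Leaving out the 1 cell with the most Ccl2 UMIs in each library turned that ratio from 1.22 to 0.672. In T-like and NK-like cells, Ccl8 had 37.8 CPM in control and 86.3 CPM in knockdown and 18.1 CPM in control and 97.6 CPM in knockdown. These were 9.35% in control and 20.5% in knockdown of free RNA for T-like cells, with the C1q gauge at 13.3% and 13.7%, and 4.49% in control and 23.2% in knockdown for NK-like cells, with the gauge at 5.38% and 12.7%. Epidermis-like cells had Ccl8 at 72.0 CPM in control and 508 CPM in knockdown. That was 17.8% and 120.4% of free RNA, with the gauge at 8.92% and 36.3%. These values rest on 96 and 214 UMIs in 223 and 108 cells, and no alternative was run for this class. Dendritic-like cells had 34.2 CPM in control and 156 CPM in knockdown, or 8.46% and 37.1% of free RNA, with the gauge at 22.2% and 35.4%. Ccl2 was higher in knockdown in these classes too. Its ratios were 2.19 (1.65 to 2.94) in T-like and 1.94 (1.27 to 3.01) in NK-like cells. They were 2.70 (2.07 to 3.50) in epidermis-like and 3.68 (2.43 to 5.66) in dendritic-like cells. Ccl2 stood at 70.0% of free RNA or less there, and the Ccl7 and Ccl12 intervals held 1 in each class. The gauge was higher in knockdown in each of these classes, but nearly level in T-like cells. The summed C1q level in T-like cells was 499 CPM in control and 327 CPM in knockdown. The part of free RNA in these ratios was not tested.

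The wider pathway in macrophage/monocyte-like cells is given by lists; counts are of list genes at least 1.5 times higher or lower among those with at least 20 UMIs, to be read against 9.97% and 3.21% of all genes and a median log2 ratio of 0.06. Of the list of other CC chemokines, which also holds Cx3cl1, 11 of 17 genes had enough UMIs, 2 were higher and 0 lower, with a median of 0.07. Ccl5, which draws T cells, had 1223 and 1399 CPM in control and knockdown and Ccl4 538 and 578 CPM. The extremes were Ccl24 with 4.44 and 7.50 CPM and Ccl22 with 1.10 and 0.789 CPM. Of the other receptors and scavengers, 4 of 7 counted and 0 passed either way (median 0.00), with Ccr1 at 183 and 163 CPM and Ccrl2 at 110.3 and 123 CPM. Of the monocyte homing genes, 10 of 12 counted, 2 were higher and 0 lower (median 0.26). They include the integrin chains Itgam (372 and 376 CPM) and Itgb2 (239.6 and 281 CPM), with Selplg lowest by ratio (160.5 and 154 CPM).

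Genes of chemokine receptor signalling were near the background: 13 of 13 counted and 0 passed either way (median 0.03). The G protein gene Gnai2 had 701 and 698 CPM, Rgs1, which dampens such signals, 508 and 404 CPM, Rgs2 215 and 168 CPM and Nup85 12.8 and 16 CPM. Of the NF-kB feedback genes, 13 of 13 counted, 1 was higher and 0 lower, with a median of 0.32: Tnfaip3, an inhibitor of NF-kB, had 69.7 and 105 CPM, Nfkbia 271 and 339 CPM, Nfkb1 195 and 241 CPM and Nfkbie 39.5 and 40.0 CPM. Of the cytokines that can induce these chemokines, 8 of 10 counted, 4 were higher and 0 lower (median 0.62). Il1b had 391 and 517 CPM and Tnf 72.3 and 99.97 CPM. The extremes were Ifng at 0.454 and 1.09 CPM, a level near 1 CPM, and Osm at 51.2 and 39.7 CPM.

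Lists of cell state genes are given beside the chemokines, and their part in the ratios was not tested. Of the monocyte genes, 11 of 12 counted, 3 were higher and 0 lower (median 0.24), with Plac8 at 468 and 532 CPM, Vcan at 15.5 and 36.4 CPM and Ms4a4c at 363 and 278 CPM. Of the patrolling monocyte genes, 8 of 8 counted, 3 were higher and 0 lower (median 0.50), with Nr4a1 at 86.7 and 94.8 CPM, Spn at 16.3 and 23.0 CPM and Adgre4 at 6.32 and 11.2 CPM. Of the mature macrophage genes, 13 of 13 counted, 1 was higher and 0 lower (median -0.11). Apoe, a lipid carrier, had 16618 and 13943 CPM, the complement gene C1qa 5294 and 4617 CPM, the scavenger receptor Cd163 2.85 and 6.02 CPM and Trem2 594 and 439.9 CPM.

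Across 51 sums of a cluster in 1 library, the 3 genes most like each member were found among 8165 genes by Pearson's r of log2(CPM + 1), as a description. Sums of 1 library share its depth and free RNA. For Ccl2 they were Uap1l1 (0.83), Gm17268 (0.81) and Plbd2 (0.81), and for Ccl7 they included Ctsb (0.91) and Grn (0.88). For Ccl8 they included Ctsb (0.88) and Prxl2b (0.88), and for Ccl12 they were Ms4a7 (0.95), Lgmn (0.92) and Adgre1 (0.92). For Ccr2 they were Sash3 (0.93), Arhgap9 (0.92) and Bin2 (0.91), and for Cx3cr1 Milr1 (0.93), AB124611 (0.91) and Lst1 (0.91). Among the members, Ccl7 and Ccl8 were most alike (0.90) and Ccl2 and Ccr2 least (-0.16).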

How the data were processed

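Single-cell RNA-seq of MC38 tumours was measured in 2 libraries, 1 per group. The authors deposited unfiltered matrices of UMI counts made with Cell Ranger 4, per the file headers; no source used here states settings, genome build or annotation. The kit was 10x 3' V3.1, per the labels' protocols. Total UMI counts were 177399315 in control and 174190399 in knockdown. Gene positions came from GENCODE vM21 (99.6% of identifiers found).

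Barcodes of at least 500 UMIs, 250 genes and at most 20% mitochondrial UMIs were kept if unlike free RNA (the profile of barcodes of at most 100 UMIs). Those with 3000 UMIs or more counted as cells without a test. The others had to differ from free RNA at a false discovery rate of 0.01 in 1000 draws, both of a Dirichlet-multinomial with the spread fitted to barcodes of 20 to 100 UMIs and of one with next to no spread. This call was changed 2 times after results had been seen. A first version took the spread from barcodes of 500 UMIs or more and was dropped because it kept few knockdown cells. A second used the fitted spread alone; tests on simulated data showed that it passed most plain free RNA as cells, so the stricter rule replaced it. It kept 11078 and 16524 cells, and its values are among the alternatives. The rule used now also drops true shallow cells, as tests on simulated data showed. Of 16874 and 26702 barcodes, 5284 and 11564 were like free RNA. Scrublet (scanpy 1.11.5) removed 459 and 733 doublets.

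Clusters (2000 variable genes without the 6 members, 30 components, 15 neighbours, Leiden resolution 1, leidenalg 0.10.2) were named from marker lists, and myeloid cells were clustered again. The naming thresholds (at least 3 markers, 20 CPM, 25% of the highest cluster, Xist below 20 CPM for tumour) were set with the data in view. Members and lists were chosen with earlier results of these data known. Named list genes are the 2 highest by mean CPM and those with the highest and lowest ratio. Some genes that this rule names are not reported here. UMIs were summed per class and library (at least 50 cells in each); with 1 library per group no test was made. Ratios carry exact Poisson intervals and shares exact binomial (Clopper-Pearson) ones; both cover counting error only. The alternatives cover depth, weights, free RNA, doublets and clustering.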

Additional observations from a re-analysis of the deposited data

Results flagged for a closer look

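Cx3cr1 in neutrophil-like cells had 172 CPM in control and 85.0 CPM in knockdown, a ratio of 0.493 (0.247 to 0.984), from 19 UMIs in each library and 61 and 194 cells. It went the opposite way to T-like, dendritic-like, macrophage/monocyte-like and tumour-like cells, where the interval lay above 1. The difference between classes was not tested. C1q genes stood at 84.0% and 56.5% of their free RNA level in neutrophil-like cells, and Cx3cr1 at 293% in control and 178% in knockdown. In tumour-like cells Cx3cr1 stood at 7.51% in control and 11.4% in knockdown of free RNA. Of the 7 tumour-like clusters, 1 had its interval above 1 and 1 below. The dendritic-like value rests on 21 and 24 UMIs, at 28.3% in control and 75.6% in knockdown of free RNA.

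Ccl12 in endothelial-like cells had 55.6 CPM in control and 26.8 CPM in knockdown, a ratio of 0.483 (0.257 to 0.862), from 50 and 16 UMIs. It went the opposite way to macrophage/monocyte-like cells, and this difference was not tested either. C1q genes stood at 8.85% and 9.72% of free RNA there, and Ccl12 at 41.1% in control and 17.8% in knockdown.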

How the results depend on the processing

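Of 192 alternative values, 137 stayed within the counting interval of the value reported, 53 moved out of it and 2 reversed. A reversal was counted only where the interval of the value reported left out 1. Further values crossed 1 and are counted as moved or within the interval. Among them are endothelial-like Ccl2, from 1.22 to 0.6655 with doublets kept, and the Ccl7 shares at both other depths. No paired analysis was possible because each group holds 1 library. In macrophage/monocyte-like cells these ratios moved. Thinned to 500 UMIs, the values were Ccl2 1.11, Ccl7 1.11, Ccl8 1.58, Ccl12 1.12, Cx3cr1 0.922. With equal cell weights, the values were Ccl2 1.10, Ccl8 1.65, Cx3cr1 1.001. From 3000 UMIs (added after seeing the data), the values were Ccl2 1.11, Ccl7 1.10, Ccl8 1.81, Ccl12 1.26, Ccr2 0.725, Cx3cr1 1.17. With equal subcluster weights, the values were Ccl2 1.19, Ccl7 1.26, Ccl8 1.83, Ccl12 1.25. Without subcluster 5 (added), the values were Ccl2 1.04, Ccl7 0.996, Ccl12 1.09. Its leading genes hold Ighm but no macrophage marker, and those of subclusters 0 and 9 hold no macrophage marker either. Subcluster 5 still had 11 macrophage/monocyte markers above the naming thresholds. At 2000 to 6000 UMIs (added), the values were Ccl2 1.39, Ccl7 1.52, Ccl8 2.24, Ccl12 1.75, Ccr2 0.626, Cx3cr1 1.14. In tumour-like cells these moved. Thinned to 500 UMIs, the values were Ccl2 1.18, Ccl7 2.63, Ccl8 1.93. With equal cell weights, the values were Ccl2 1.18, Ccl8 1.77. With 10% free RNA subtracted, more than the C1q gauge in this class, the values were Ccl2 1.19, Ccl7 22.6. With doublets kept, the values were Ccl2 1.24, Ccl7 2.14, Ccl8 1.83. With equal cluster weights (added), the values were Ccl2 1.36, Ccl7 2.30. Without cluster 9 (added), led also by Dcn and Dpt, the values were Ccl2 1.29, Ccl7 2.29. At 10000 to 20000 UMIs (added), the values were Ccl2 1.001, Ccl7 1.48, Ccl8 1.03. In fibroblast-like cells, thinned to 500 UMIs, the values were Ccl8 1.65 and Ccl7 1.26, and Ccl7 was 1.31 with equal cell weights. Cx3cr1 in T-like cells was 1.17 when thinned. The ratio of shares of macrophage/monocyte-like cells without thinning was 0.954 for Ccl2, 0.892 for Ccl7, 1.15 for Ccl8, 0.914 for Ccl12, 0.842 for Ccr2; those shares follow depth. Cx3cr1 reversed on thinning, though its thinned interval of 0.813 to 1.05 holds 1, and Ccl12 shares reversed without thinning. The earlier cell call moved none of the macrophage/monocyte-like, tumour-like or fibroblast-like ratios out of their intervals. Ccl8 in macrophage/monocyte-like cells ran from 1.58 to 2.24 over 14 alternatives. Subtracting free RNA left no control value for tumour-like Ccl8, and little for Ccl7. The cause of the other moves was not tested.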

Other observations

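Mast cell and basophil-like cells, with fewer than 50 cells in knockdown, were left out of the comparisons. The cluster led by the mast cell protease genes Mcpt4, Cma1 and Tpsb2, had the highest Ccl7 level of any cluster reported here, with 3448 CPM in control and 3010.1 CPM in knockdown in 30 and 39 cells, and Ccl2 at 2146 CPM in control and 2332 CPM in knockdown. Ccl8 was nearly absent from it, with 2 and 9 UMIs. The cluster led by Mcpt8 and Il6, had Ccl2 at 169 CPM in its 31 control cells and held 6 knockdown cells.

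Ackr1, a scavenger receptor of venular endothelium that binds CC chemokines, had 71.1 CPM in control and 8.39 CPM in knockdown in endothelial-like cells, from 64 and 5 UMIs (ratio 0.118, 0.0370 to 0.290). These were 115 and 112 cells, no alternative was run for Ackr1, and the part of the mix of endothelial cells was not tested. In fibroblast-like cells it had 23.7 CPM in control and 30.2 CPM in knockdown (ratio 1.27, 0.762 to 2.12). Myeloid subcluster 17, with 28 control and 86 knockdown cells, had Ccl8 at 126 CPM in control and 736 CPM in knockdown and Ccl12 at 840.0 CPM in control and 463 CPM in knockdown.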
